A study of Homo sapiens with 6 samples.

Results

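SET8 shRNA together with Wnt3a medium was compared with control shRNA in control medium, the widest contrast among the 3 groups of arrays. The comparison used 4 of the 6 arrays, chosen by their labels: 2 arrays of cells with SET8 shRNA and Wnt3a medium and 2 arrays of cells with control shRNA and control medium. Of 45033 probe sets on the array, 42947 carry a gene name, and 23808 probe sets of 13070 genes were bright enough to test, 23088 of them with a gene name. All cells were HEK293, a human embryonic kidney line, grown in DMEM with 10% FBS. In every group the cells were transfected with an shRNA for about 40 hours and then kept for 7 hours in conditioned medium, so the controls carry an shRNA and received conditioned medium too. A further pair of arrays, with control shRNA and Wnt3a medium, divides the difference into a Wnt3a step (Wnt3a medium minus control medium, both with control shRNA) and a SET8 step (SET8 shRNA minus control shRNA, both in Wnt3a medium), which add up to the combined difference. None of the 6 arrays has SET8 shRNA in control medium, so a gene that moved in the SET8 step cannot be said to need Wnt3a for it. The shRNA sequence, the number of shRNAs and the cells that conditioned the medium are not given in the sources used here, and the design text also speaks of siRNA. The labels do not say whether the 2 arrays of a group came from separate cultures, and the p-values below rest on a spread between arrays that may be technical.

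SET8, now named KMT5A, is the enzyme that adds a single methyl group to lysine 20 of histone H4, a mark tied to chromatin compaction, replication and mitosis. Wnt3a is a secreted ligand that stabilises beta-catenin, which then binds TCF and LEF factors on DNA and turns on target genes, many of them inhibitors that feed back on the pathway. Interferon response genes code for antiviral proteins and are switched on through DNA elements bound by STAT and IRF factors. HEK293 cells also express many neuronal genes, among them genes of vesicles and hormone processing.

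The gene targeted by the shRNA was lower on both SET8 shRNA arrays. On its brighter probe set (AY064546), KMT5A read 11.03 and 10.75 in log2 intensity on the control arrays, 11.20 and 10.53 with Wnt3a medium, and 8.97 and 9.65 with SET8 shRNA and Wnt3a medium. Both SET8 arrays lay below all 4 control shRNA arrays, with no overlap. The combined difference was -1.58 (SE 0.34), 2.98-fold lower, and did not pass with an adjusted p of 0.14 in limma, a linear model with a shared estimate of the spread and Benjamini-Hochberg adjustment over the 23808 probe sets. With the 4 arrays of the comparison alone the limma adjusted p was 0.0498. The other KMT5A probe set (NM_020382) gave -1.20, with a limma adjusted p of 0.166. Nearly all of the difference lay in the SET8 step (-1.56), and the Wnt3a step was -0.02.

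Markers of the HEK293 line had high values on all arrays: 13 of 16 were above the array median on all 6, including VIM, KRT8 and KRT18, and their summed log2 intensity was 16.3 to 16.4 on every array. The kidney factors PAX2 and PAX8 and the neurofilament gene INA were above the median on 2, 1 and 1 arrays. Replicate arrays correlated across all probe sets at 0.972, 0.976 and 0.985 for control, Wnt3a and SET8 with Wnt3a. Of the tested probe sets, 6.87%, 8.98% and 1.86% differed more than 2-fold between the replicates, in the same order. The control medium and Wnt3a medium pairs thus varied more than the SET8 pair. Much of that variation was shared: the replicate differences of these pairs correlated at 0.75. In bulk RNA, fewer cells that express a gene and less RNA per cell cannot be told apart.

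In the combined comparison 5 genes rose and 4 fell. CALCB, PIANP, ZNF277, TBXT and LMO2 rose, and OAS1, CPLX1, OLFM1 and TMEM121B fell, with 12 probe sets called at a limma adjusted p under 0.05. These were 6 probe sets in each direction, 0.0504% of the 23808 tested (0.0252% higher and 0.0252% lower). The 6 lower probe sets, of 4 genes, moved in the SET8 step. Of the 6 higher ones, 4 moved in both steps and 2 were moved by Wnt3a alone, where a probe set counts as moved by Wnt3a alone if the Wnt3a step is at least 2 of 3 parts of the combined difference, and as moved in the SET8 step if it is at most 1 of 3 parts. This division describes the fitted values and is no test, and both steps use the Wnt3a arrays, with opposite sign. Neither step alone gave a call: the smallest limma adjusted p was 0.0575 for the Wnt3a step, with 510 probe sets at an unadjusted p under 0.05, and 0.0895 for the SET8 step, with 1705. This fit has no pairing, so a replicate difference shared by the control and Wnt3a pairs counts as spread. Its part in the count of the Wnt3a step was not tested.

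The 12 calls lie close to the threshold. Their limma adjusted p-values ran from 0.0465 to 0.0476, and the next probe sets were SLC4A8 at 0.05 and ATP6V1D and GOLGA7B at 0.0506. With the 4 arrays of the comparison alone, limma called 230 probe sets, and without either SET8 shRNA array it called none, with 1705 and 1412 at an unadjusted p under 0.05. Without control medium replicate 1 it called 22, and without control medium replicate 2 it called 5. With no filter on dim probe sets it called none, with a smallest adjusted p of 0.155 and 4012 at an unadjusted p under 0.05.

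**Figure D1:**
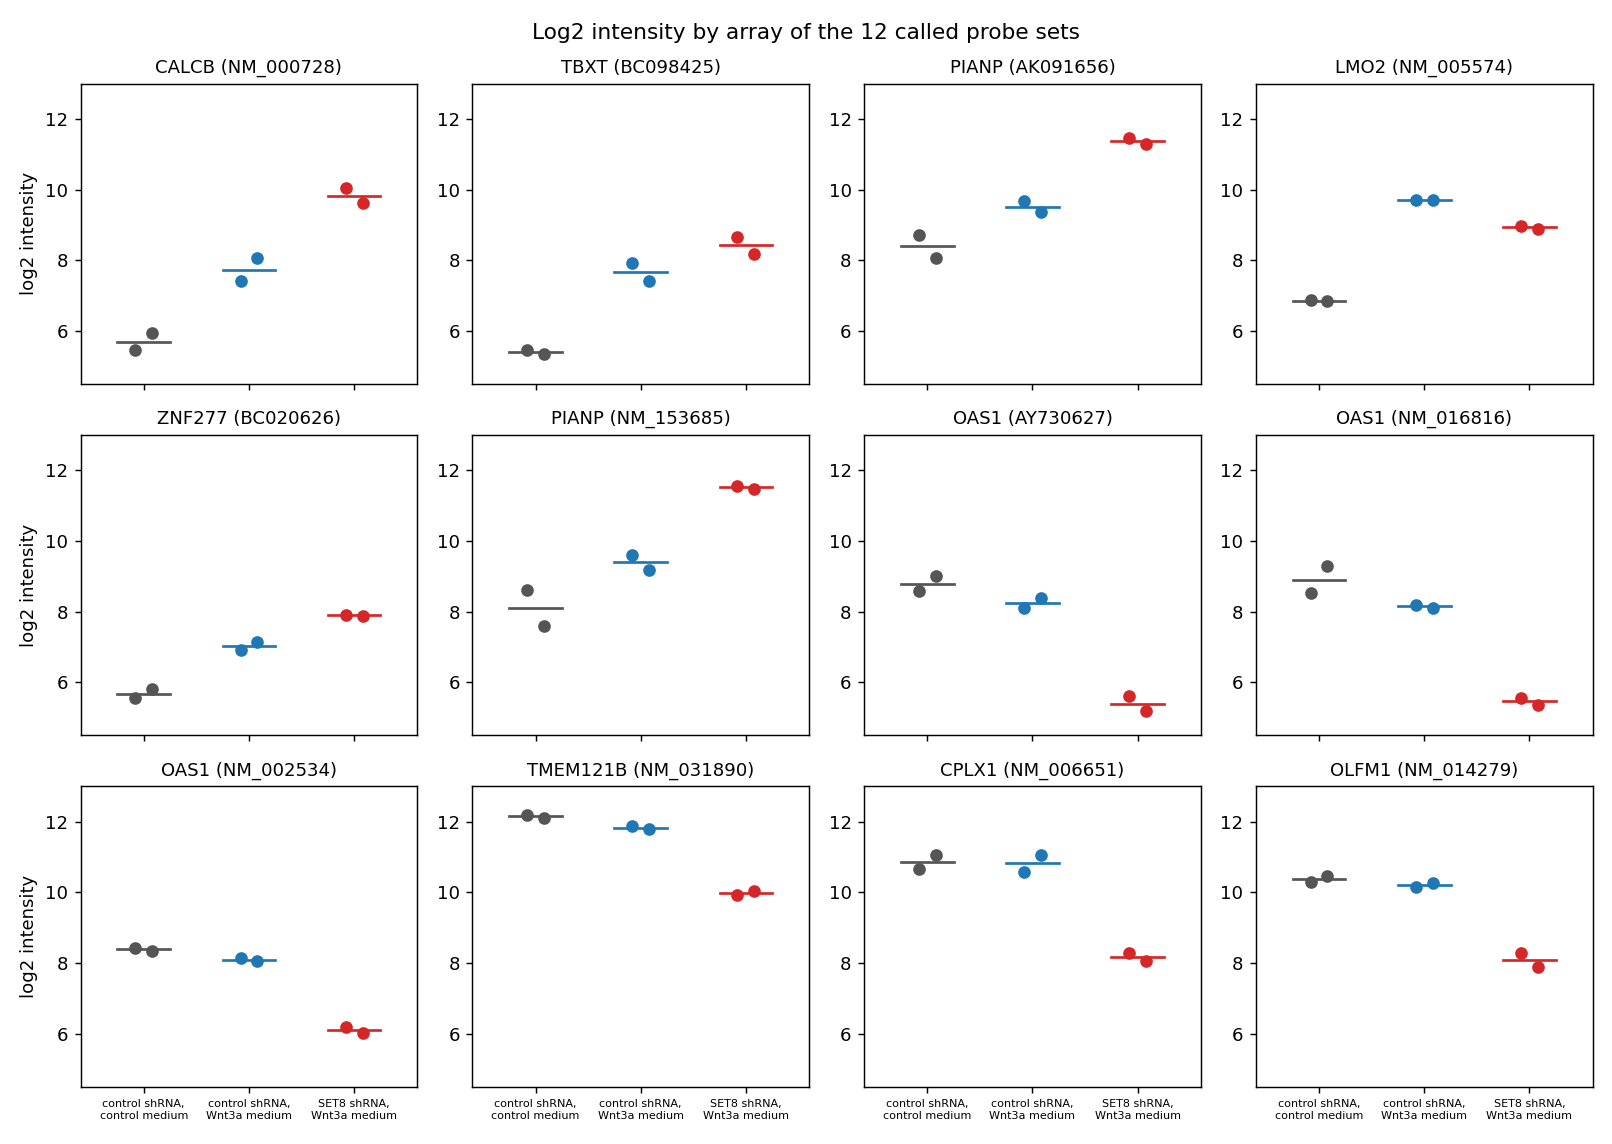
Log2 intensity of the 12 called probe sets on each of the 6 arrays, with points for the arrays and a line for the mean of a group of 2. CALCB climbs from 5.45 and 5.94 through 7.40 and 8.07 to 10.03 and 9.62, whereas the 6 lower probe sets (OAS1, TMEM121B, CPLX1, OLFM1) have their drop between the Wnt3a arrays and the SET8 arrays.

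Among the genes that rose in both steps, CALCB had the largest difference of the 12 calls. CALCB codes for the beta form of calcitonin gene-related peptide, a secreted neuropeptide that widens blood vessels. Its probe set (chromosome 11, 15051721 to 15056753, hg18) read 5.45 and 5.94 on the control arrays, 7.40 and 8.07 with Wnt3a and 10.03 and 9.62 with SET8 shRNA and Wnt3a. The 3 pairs do not overlap and are ordered control, Wnt3a, SET8 with Wnt3a. The combined difference was 4.13 (SE 0.32), 17.6-fold, with a limma adjusted p of 0.0465. The Wnt3a step was 2.04 (95% interval 1.28 to 2.80) and the SET8 step 2.09 (1.33 to 2.85), so the steps were of like size. On the control arrays CALCB was below the array median, where background adds to the signal, so the fold is uncertain.

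PIANP codes for a neural membrane protein that binds the immune receptor PILRA, and both of its probe sets rose. AK091656 (chromosome 12, 6673218 to 6680070, hg18) read 8.72 and 8.07, then 9.67 and 9.37, then 11.45 and 11.30, in the order control, Wnt3a, SET8 with Wnt3a. The combined difference came to 2.98 (SE 0.29), 7.90-fold, made of 1.13 in the Wnt3a step and 1.85 in the SET8 step. NM_153685 gave 3.41 (SE 0.36), 10.6-fold, and both had a limma adjusted p of 0.0476. ZNF277, a zinc finger protein gene, read 5.55 and 5.80, 6.92 and 7.15, and 7.90 and 7.88 on BC020626 (chromosome 7, 111633991 to 111757751, hg18). Its pairs were ordered in the same way, with a combined difference of 2.21 (SE 0.23), 4.64-fold, and a limma adjusted p of 0.0476. A further ZNF277 probe set was at 0.95 with a limma adjusted p of 0.471 and did not pass, so the probe sets of this gene disagree in size.

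Both genes moved by Wnt3a alone code for transcription regulators. TBXT is brachyury, a T-box factor of the primitive streak and mesoderm and a known Wnt target. On BC098425 (chromosome 6, 166491134 to 166502120, hg18) it read 5.46 and 5.35 on the control arrays, 7.93 and 7.42 with Wnt3a and 8.67 and 8.18 with SET8 shRNA and Wnt3a. The combined difference was 3.01 (SE 0.29), 8.08-fold, with a limma adjusted p of 0.0476, of which 2.26 lay in the Wnt3a step and 0.75 in the SET8 step (95% interval 0.08 to 1.42). TBXT was no lower with SET8 shRNA than with control shRNA in Wnt3a medium. A dimmer TBXT probe set that was not tested differed by 2.15.

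LMO2 is a LIM-domain cofactor that bridges DNA-binding factors in blood progenitors. Its probe set NM_005574 (chromosome 11, 33836697 to 33870412, hg18) read 6.86 and 6.84, then 9.71 and 9.70, then 8.98 and 8.89. Both SET8 arrays lay above the control arrays and below both Wnt3a arrays. The combined difference was 2.08 (SE 0.22), 4.23-fold, with a limma adjusted p of 0.0476, as a Wnt3a step of 2.85 and a SET8 step of -0.77 (95% interval -1.28 to -0.26). A dimmer probe set of LMO2, not tested, differed by 1.05. CALCB, TBXT, LMO2 and ZNF277 were above the array median on no control array, so they passed the filter through the arrays where they are high, and the folds of TBXT, LMO2 and ZNF277 are uncertain for the reason given for CALCB.

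OAS1 had the largest fall. It codes for an enzyme that senses double-stranded RNA and makes the activator of RNase L. On AY730627 (chromosome 12, 111829218 to 111842039, hg18) OAS1 read 8.59 and 9.00 on the control arrays, 8.12 and 8.39 with Wnt3a and 5.62 and 5.17 with SET8 shRNA and Wnt3a. The SET8 arrays stood apart from all 4 control shRNA arrays and were below the array median. The combined difference was -3.40 (SE 0.28), 10.6-fold lower (limma adjusted p of 0.0465), and the SET8 step was -2.86 (95% interval -3.51 to -2.21) against a Wnt3a step of -0.54 (-1.19 to 0.11). The called OAS1 probe sets NM_016816 and NM_002534 gave -3.44 and -2.27, and the Wnt3a step of NM_016816 was -0.76 (95% interval -1.46 to -0.05). Both remaining OAS1 probe sets were at -2.91 and -2.52 and did not pass, with limma adjusted p-values of 0.0506 and 0.192. The 5 probe sets share the gene, so they are no independent evidence of each other.

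IFIT1 and IFIT3, partner proteins that bind foreign RNA, were next among the interferon genes but were not called. IFIT3 read 8.11 and 8.10 on the control arrays, 7.64 and 7.13 with Wnt3a and 5.50 and 5.91 with SET8 shRNA and Wnt3a, a combined difference of -2.40 (SE 0.28, limma adjusted p of 0.0506). IFIT1 read 7.91 and 8.38, then 8.37 and 8.03, then 6.08 and 6.10, a difference of -2.06 (SE 0.26, limma adjusted p of 0.0546). In both genes the SET8 arrays did not overlap with any other array. IFIT3 was above the array median on the control arrays only, so it passed the filter through them. For IFIT1 the Wnt3a step was 0.06 and the SET8 step -2.11, and for IFIT3 they were -0.72 and -1.68.

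The promoters of these 3 genes are shown because they hold the letters of the interferon-stimulated element. The sequences are the 250 bases before the annotated gene start from RefSeq (GRCh38.p14), on the strand of the gene, 5′ to 3′, in lower case, with matches in capitals. Searches ran on both strands for the usual element, in which 2 bases of any kind stand between a pair of GAAA repeats, and, added after the OAS1 promoter had no match, for GAAANGAAA, which has 1 base between them. Runs of capitals that begin with TTTC are the usual element on the opposite strand. OAS1 (chr12:112906712-112906961, plus strand) holds 1 GAAANGAAA match that begins 17 bases before the start. IFIT1 (chr10:89392373-89392622, plus strand) holds 2 matches of the usual element, and IFIT3 has 2 annotated starts (chr10:89327747-89327996 and chr10:89332279-89332528, plus strand) with 2 matches each.
OAS1: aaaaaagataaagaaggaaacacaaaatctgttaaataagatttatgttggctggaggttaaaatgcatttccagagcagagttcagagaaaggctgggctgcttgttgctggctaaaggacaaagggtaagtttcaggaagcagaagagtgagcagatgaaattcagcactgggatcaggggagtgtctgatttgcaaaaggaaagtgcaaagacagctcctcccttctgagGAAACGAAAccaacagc
IFIT1: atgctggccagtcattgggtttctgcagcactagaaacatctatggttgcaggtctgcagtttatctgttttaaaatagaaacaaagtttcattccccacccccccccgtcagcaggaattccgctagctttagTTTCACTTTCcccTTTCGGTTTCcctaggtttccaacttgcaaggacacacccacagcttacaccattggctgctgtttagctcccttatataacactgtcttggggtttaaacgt
IFIT3, upstream start: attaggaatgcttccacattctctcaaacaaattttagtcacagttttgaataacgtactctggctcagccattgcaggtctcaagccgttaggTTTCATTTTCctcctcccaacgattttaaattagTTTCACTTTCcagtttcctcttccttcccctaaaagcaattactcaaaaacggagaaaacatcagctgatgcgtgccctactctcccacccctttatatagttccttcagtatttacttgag
IFIT3, downstream start: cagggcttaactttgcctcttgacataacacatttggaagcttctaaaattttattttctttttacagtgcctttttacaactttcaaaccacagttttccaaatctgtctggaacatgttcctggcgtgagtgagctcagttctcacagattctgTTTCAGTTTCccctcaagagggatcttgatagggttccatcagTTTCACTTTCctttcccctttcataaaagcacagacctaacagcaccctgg
Of the 28 interferon response genes tested, 24 have a promoter in the table, with 29 promoters in all. The usual element was in 18 of these 29 promoters and in 3.02% of all 35116 promoters of that length. GAAANGAAA was in 5 of the 29 and in 2.69% of all, and a promoter with both motifs counts for each. The genes with a match of the usual element included ISG15 (-1.32), IFI6 (-1.54) and IFI27 (-1.60), and also PARP14 (-0.02), LGALS3BP (0.05) and OAS3 (0.75). A match describes the letters only and is neither a binding site nor a cause.

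Interferon response genes leaned to lower values in the combined comparison. Of 46 genes in the list 28 were tested, and the other members were too dim. On the brightest probe set of each gene, 22 had lower and 6 higher values, with a median of -0.56 beside a median of 0.02 over all 13070 genes. Of all 13070 genes, 6243 had lower and 6827 higher values. No member was called on that probe set (OAS1 was called on 3 others). At an unadjusted limma p under 0.05, 12 members were lower and 0 higher, where 579 of all genes were lower and 852 higher. A count without a model asks for both arrays of a group to lie at least 1.5-fold above or below both of the other. By this count 10 of the 28 members were lower and 0 higher, beside 1.84% of all genes lower and 3.52% higher. All gene lists here were chosen with earlier results of these arrays known, so the direction of this one is no independent evidence.

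The array values place this difference in the SET8 step. The median level of the 28 genes was 10.32 and 10.48 on the control arrays, 10.39 and 10.34 with Wnt3a, and 9.65 and 9.64 with SET8 shRNA and Wnt3a. The control and Wnt3a arrays overlapped, and both SET8 arrays were below them. All 10 separated members were also separated in the SET8 step, where 1.62% of all genes were lower: OAS1, IFIT3, IFIT1, IRF7, IFI35, IFI27, IFI6, PSMB9, IRF9 and IFITM1. IRF7, the factor that amplifies interferon production, was at -1.78 and IRF9, the DNA-binding partner of STAT factors, at -1.16. PSMB9, a subunit of the immunoproteasome, was at -1.48, and IFI6, which protects infected cells from death, at -1.54.

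Not every member of the interferon list was lower. OAS3, a relative of OAS1, was at 0.75, USP18, which removes ISG15 from proteins, at 0.43, and IRF1 at 0.09. IFITM2 and IFITM3, membrane proteins that restrict virus entry, were at 0.08 and 0.07, while their neighbour IFITM1 was at -1.02. STAT2, a signal carrier of the pathway, was at -0.66, with a limma adjusted p of 0.623. With the 4 arrays alone, 3 of the 28 members fell in limma and none rose, where 0.375% of all genes fell and 0.712% rose.

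**Figure D2:**
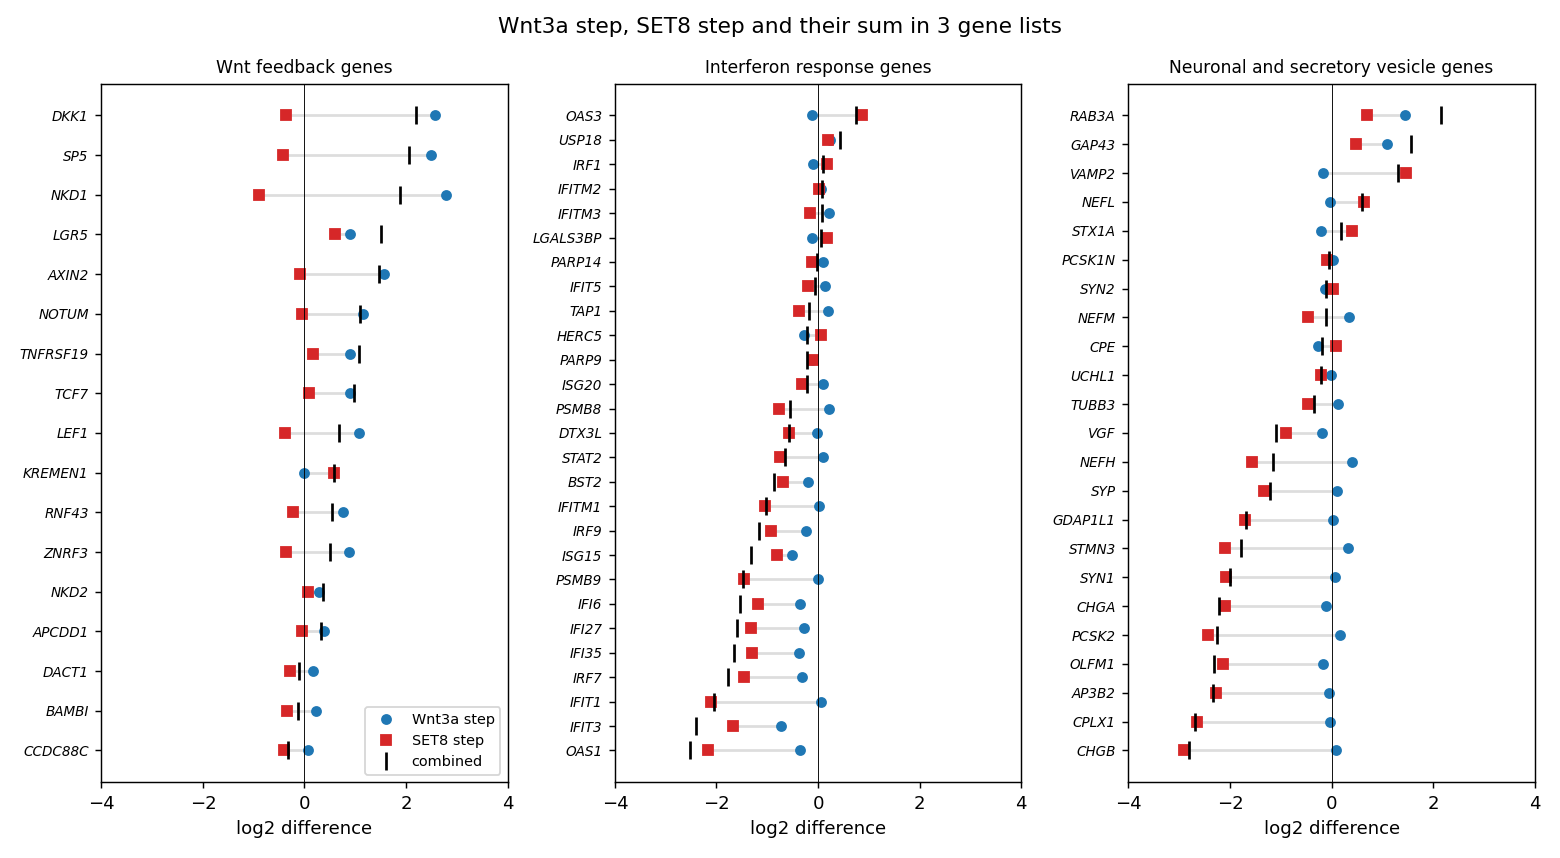
Log2 differences of the tested members of 3 gene lists, apart from those not reported here, with the Wnt3a step as circles, the SET8 step as squares and the combined difference as a bar. The feedback genes DKK1, SP5 and NKD1 have large Wnt3a steps (2.56, 2.48 and 2.79), whereas the interferon gene OAS1 and the vesicle genes CHGB and CPLX1 have large negative SET8 steps (-2.17 on the brightest OAS1 probe set, -2.90 and -2.65).

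CPLX1 and OLFM1, genes of neurons and secretory vesicles, fell. CPLX1 codes for complexin, which clamps the SNARE complex of synaptic vesicles. Its probe set NM_006651 (chromosome 4, 768744 to 809945, hg18) read 10.67 and 11.04 on the control arrays, 10.58 and 11.06 with Wnt3a and 8.27 and 8.06 with SET8 shRNA and Wnt3a. Control and Wnt3a arrays overlapped and the SET8 arrays were far below both, with a combined difference of -2.69 (SE 0.27), 6.43-fold lower (limma adjusted p of 0.0476). The Wnt3a step was -0.03 and the SET8 step -2.65 (95% interval -3.30 to -2.01).

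OLFM1 codes for a secreted olfactomedin-domain glycoprotein of neurons. NM_014279 (chromosome 9, 137106991 to 137152845, hg18) read 10.30 and 10.47, then 10.15 and 10.27, then 8.27 and 7.87, a combined difference of -2.31 (SE 0.25), 4.97-fold lower (limma adjusted p of 0.0476). Other OLFM1 probe sets that were too dim to test differed by -1.92 and -0.32. TMEM121B, a transmembrane protein gene in no list, fell by 2.17 on the log2 scale (SE 0.22, limma adjusted p of 0.0476), 4.51-fold lower. Its arrays read 12.17 and 12.12, 11.87 and 11.79, and 9.92 and 10.03 on NM_031890 (chromosome 22, 15977189 to 15982143, hg18). All 4 control shRNA arrays of TMEM121B were at or above 11.79, and the Wnt3a step was -0.31.

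The neuronal and secretory vesicle list was split. Of 44 genes 24 were tested: 2 fell, none rose, and the median was -0.72 (-0.21 with no filter on dim probe sets), where 0.0306% of all genes rose and 0.023% fell on their brightest probe set. By the 1.5-fold separation 12 were lower and 4 higher, beside 1.84% and 3.52% of all genes. The list was chosen with earlier results of these arrays known, so its direction is no independent evidence. The median level of the list was 10.34 and 10.64 on the control arrays, 10.31 and 10.63 with Wnt3a, and 9.49 and 9.64 with SET8 shRNA and Wnt3a. The Wnt3a arrays read close to the control arrays, and both SET8 arrays were lower.

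Values of prohormone and granule genes ranged widely. CHGB, the lowest member of the list, and CHGA, the granins that fill dense-core vesicles, were at -2.82 and -2.22, with limma adjusted p-values of 0.0633 and 0.12. PCSK2, a convertase that cuts prohormones inside those vesicles, read 10.47 and 10.83, then 10.47 and 11.15, then 8.42 and 8.34, a difference of -2.27 (SE 0.30, limma adjusted p of 0.0546). The SET8 arrays of PCSK2 lay below all others. VGF, a further granule protein, was at -1.10, but PCSK1N and CPE, which act in the same compartment, were at -0.06 and -0.20.

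Synaptic vesicle genes went both ways. AP3B2, the neuronal subunit of the AP-3 coat, was at -2.33, SYN1, which tethers vesicles to actin, at -2.01, and SYP, a vesicle membrane protein, at -1.21. BSN, bassoon, a scaffold of the active zone that is in no list here, read 8.84 and 9.18, then 8.43 and 8.79, then 7.08 and 6.69, a difference of -2.13 (SE 0.27, limma adjusted p of 0.0546). Higher values were seen in RAB3A (2.15), a vesicle GTPase, GAP43 (1.57), a growth cone protein, and VAMP2 (1.30), a vesicle SNARE. None of these passed. RAB3A had a Wnt3a step of 1.45 and VAMP2 a SET8 step of 1.46, so the higher members differed in where they moved. NEFH, a neurofilament subunit and a marker of the HEK293 line, was at -1.15, while NEFL and NEFM were at 0.60 and -0.12. With the 4 arrays alone 9 of the 24 members fell in limma and none rose on the brightest probe set, where 0.375% of all genes fell and 0.712% rose. GAP43 rose on its dimmer probe set NM_002045 (1.62, limma adjusted p of 0.0341) in that fit.

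Other genes with the lowest p on the lower side were not called, and they too moved in the SET8 step. GOLGA7B, which assists a palmitoyltransferase, read 9.31 and 9.31, then 9.40 and 9.19, then 7.37 and 7.33, a difference of -1.96 (SE 0.22). NDUFA8, a subunit of mitochondrial complex I, was at -2.36, and TMEM198 at -2.10. SSU72, a phosphatase of RNA polymerase II, was at -2.27 on AK023110, but its other probe sets were at 0.11 and 0.01. The SSU72 difference therefore belongs to 1 of its 3 probe sets.

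On the higher side, the SET8 step held the genes next to the threshold. SLC4A8, a bicarbonate transporter, read 5.42 and 5.85 on the control arrays, 6.29 and 6.11 with Wnt3a and 7.89 and 7.98 with SET8 shRNA and Wnt3a, a difference of 2.30 (SE 0.25, limma adjusted p of 0.05). Its 4 further probe sets, too dim to test, lay between -0.55 and 0.40. ATP6V1D, a subunit of the vacuolar proton pump, was at 2.20, its 3 other tested probe sets at 1.84 to 2.16 and an untested one at 0.04. PRPS2, which makes the sugar phosphate for nucleotide synthesis, read 8.37 and 7.66, then 8.35 and 8.17, then 10.50 and 10.48, a difference of 2.47 (SE 0.29). For PRPS2 the control and Wnt3a arrays overlapped and the SET8 arrays were above them. IL27RA, a cytokine receptor, was at 1.91 on one probe set and 1.76 on another. The kisspeptin receptor gene KISS1R (2.13) and FAM131B (2.13) moved in both steps, and the insulin-responsive glucose transporter SLC2A4 (2.04) was moved by Wnt3a alone. Limma adjusted p-values of ATP6V1D, PRPS2, IL27RA, FAM131B, KISS1R and SLC2A4 were 0.0506 to 0.0546. SLC4A8, KISS1R and ATP6V1D (on BC001411) were above the array median on the SET8 arrays only. They passed the filter through these arrays, so their place in the division depends in part on the filter. SLC2A4 and FAM131B (on NM_001031690) were above the array median on no control array.

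Of 20 Wnt feedback genes 17 were tested, and none passed in limma over all probe sets. With SET8 shRNA and Wnt3a 14 had higher and 3 lower values than control, where 6827 of all 13070 genes had higher and 6243 lower values. At an unadjusted limma p under 0.05, 5 members were higher and 0 lower, where 852 of all genes were higher and 579 lower. The median was 0.67, and the step medians were 0.89 for Wnt3a and -0.22 for SET8. By the separation, 4 were higher and 0 lower, beside 3.52% and 1.84% of all genes: DKK1, SP5, NKD1 and AXIN2. The other 13 were not separated. DKK1, a secreted inhibitor of the Wnt co-receptors, read 7.39 and 6.66, then 9.53 and 9.64, then 9.13 and 9.32, a combined difference of 2.20 (SE 0.29, limma adjusted p of 0.0546). The other DKK1 probe set (NM_012242) was at 1.76 (limma adjusted p of 0.15). Its SET8 step was -0.64, against -0.36 on the first (BC001539). SP5, a transcription factor and direct target, read 6.87 and 7.45, then 9.32 and 9.97, then 9.44 and 8.99, a difference of 2.06 (SE 0.34, limma adjusted p of 0.0874). In both genes the SET8 arrays with Wnt3a were above both control arrays. DKK1 (on BC001539) and SP5 were above the array median on no control array, so they passed the filter through the arrays where they are high.

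NKD1, which binds Dishevelled and restrains Wnt signalling, had steps of opposite sign. It read 8.97 and 8.70 on the control arrays, 11.61 and 11.63 with Wnt3a and 10.52 and 10.92 with SET8 shRNA and Wnt3a. The SET8 arrays lay between the other pairs, with a Wnt3a step of 2.79, a SET8 step of -0.90 (95% interval -1.49 to -0.31) and a combined difference of 1.89 (SE 0.25, limma adjusted p of 0.0546). AXIN2, a scaffold protein of the complex that destroys beta-catenin, read 8.55 and 7.79, then 10.00 and 9.47, then 9.25 and 10.04, and its SET8 step of -0.09 had an interval of -0.99 to 0.81. The Wnt3a and SET8 pairs of AXIN2 overlapped, and the interval does not show that they were alike. The other AXIN2 probe set (NM_004655) had a SET8 step of -0.19. LEF1, a partner of beta-catenin on DNA, was at 0.67 (95% interval -0.13 to 1.48). The receptor gene LGR5 read 7.92 and 6.08 on the control arrays and 7.82 and 9.18 on the SET8 arrays, which overlap. Other members had combined differences of 1.10 (NOTUM), 1.06 (TNFRSF19) and 0.97 (TCF7). Both replicates of control medium decide the size of the list's median, which was 1.05 without control replicate 1 and 0.48 without control replicate 2. With the 4 arrays alone 3 of the 17 rose in limma, where 0.712% of all genes rose.

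Other Wnt target genes had values on both sides of control. Of 29 genes 20 were tested, TBXT rose, and the median was 0.10. By the separation 4 were higher and 0 lower, beside 3.52% and 1.84% of all genes: TBXT, WNT11 (1.42), PLAUR (1.30) and WNT3A (1.16). WNT11 lay in the Wnt3a step (1.43) and PLAUR, the urokinase receptor, in the SET8 step (0.92). CCND1 read 13.79 and 13.89, then 14.08 and 14.20, then 14.07 and 13.80, a combined difference of 0.09 (95% interval -0.45 to 0.63), which became -0.04 without SET8 replicate 1. MYC was at -0.28 (-0.87 to 0.30), and CD44 was the lowest at -0.61. CCND1 and MYC, often-cited targets, had intervals that include 0.

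The TBXT promoter is shown because it holds TCF/LEF letters. The letters searched on both strands were ATCAAAG or TTCAAAG or AACAAAG or TACAAAG, which occur in 12% of all 35116 promoters. TBXT has 2 annotated starts, and the window chr6:166167852-166168101 (minus strand, RefSeq GRCh38.p14) has 1 match, in capitals, that begins 88 bases before the start, while the other window has none.
TBXT: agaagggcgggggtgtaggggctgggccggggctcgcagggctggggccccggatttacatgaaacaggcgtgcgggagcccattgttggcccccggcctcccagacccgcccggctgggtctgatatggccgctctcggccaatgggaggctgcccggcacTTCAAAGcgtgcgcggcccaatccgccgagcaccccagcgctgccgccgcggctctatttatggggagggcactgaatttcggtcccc
For the 12 genes named on the higher side by their calls or smallest p, 1 of 11 promoters holds a match (TBXT). For the 12 named on the lower side it is 2 of 14 (IFIT1 and PCSK2). Of the Wnt feedback genes, 11 have a promoter in the table, and 4 of their 16 promoters hold a match (SP5, TCF7, DKK1 and DACT1). No match in a window says only that these letters are not within 250 bases before the start.

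Over all probe sets, 801 (3.36%) were at least 1.5-fold higher on both SET8 arrays than on both control arrays and 394 (1.65%) were lower. They belong to 594 and 313 genes. Of the 801, 284 were also separated in the SET8 step, 84 in the Wnt3a step and 6 in both, 2 (LMO2 and NKD1) were raised by Wnt3a and lower again in the SET8 step, and 425 were separated in neither step alone. Of the 394 lower, 215 were separated in the SET8 step, 14 in the Wnt3a step and 165 in neither alone. By the share of the Wnt3a step, 383 of the higher probe sets moved in the SET8 step, 135 by Wnt3a alone and 283 in both, and of the lower ones 301, 28 and 65. Lower probe sets were thus mostly in the SET8 step, and higher ones were more spread over the steps.

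Of the 124 probe sets (0.521%) that were separated and higher with Wnt3a alone, 92 (74.2%) were also higher in the combined comparison, which is 11.5% of its 801. Of the 29 (0.122%) lower with Wnt3a alone, 14 (48.3%) were also lower in the combined comparison, 3.55% of its 394. The comparisons share the control medium arrays, so these counts divide the list and are no independent support. In the SET8 step 405 (1.7%) were higher and 348 (1.46%) lower.

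The members of each class with the smallest p show what the division holds. Among higher probe sets separated in neither step alone were NDRG4 (1.62), PDE9A (1.35), which breaks down cyclic GMP, and TIAM1 (1.31), an activator of the GTPase Rac. TIAM1 read 8.11 and 8.19, then 8.79 and 8.64, then 9.38 and 9.54, with 0.57 in the Wnt3a step and 0.74 in the SET8 step. Among lower ones were SKOR1 (-1.93), a co-repressor of SMAD factors, COL8A1 (-1.45), a collagen chain, and PARP10 (-1.39). In the Wnt3a step stood MCHR1 (2.14), the receptor of melanin-concentrating hormone.

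**Figure D3:**
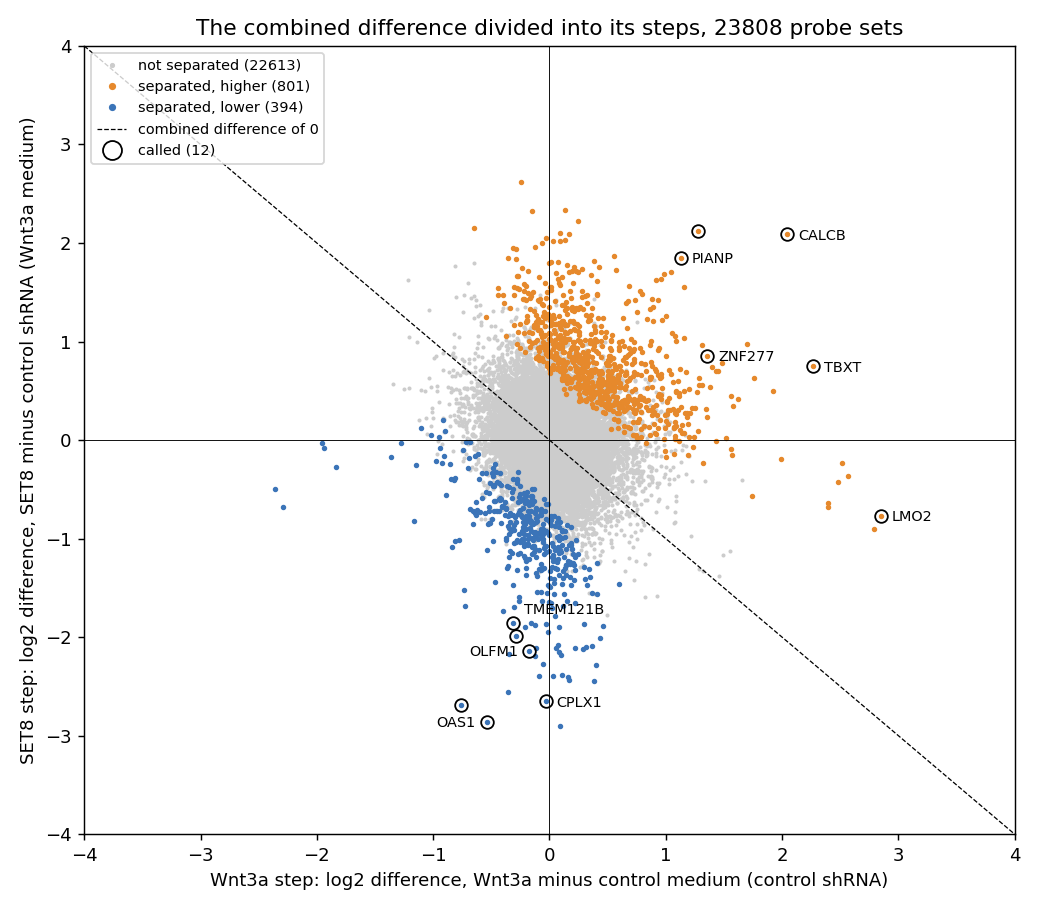
The Wnt3a step (x axis) and the SET8 step (y axis) of 23808 probe sets, in log2 units, with separated probe sets coloured, the 12 called ones circled and a dashed line where the combined difference is 0. CALCB lies far along both axes (2.04 and 2.09), LMO2 along the Wnt3a axis (2.85 and -0.77), and OAS1, CPLX1, OLFM1 and TMEM121B low on the SET8 axis with Wnt3a steps of -0.76 to -0.03.

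Separated probe sets differed from the rest in genomic span and level. The median span of the target transcript was 22.1 kb for the 801 higher, 14 kb for the 394 lower and 17.4 kb for all tested. Their median log2 level on the control arrays was 8.39, 9.62 and 10.26 in the same order. Of the 801 higher, 220 were above the array median on no control array and 96 only on SET8 arrays, and of the 394 lower, 123 were above it on no SET8 array. Such probe sets passed the filter through the arrays where they are high. The part of span and level in these counts was not tested.

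Tested fibroblast genes differed in both directions, and several dim members of the list were lower with Wnt3a medium. Of the 6 tested, 3 had higher and 3 lower values, with a median of -0.09 (-0.86 with no filter on dim probe sets) and a median Wnt3a step of -0.14. COL1A2, a chain of type I collagen, read 8.28 and 7.87 on the control arrays, 5.29 and 6.28 with Wnt3a and 4.74 and 5.47 with SET8 shRNA and Wnt3a, a difference of -2.97 (SE 0.40, limma adjusted p of 0.0546). The 2 control arrays were above the other 4. Only on the control arrays was this COL1A2 probe set above the array median, so it passed the filter through them. The same holds for COL3A1 on NM_000090. SOD3, a secreted antioxidant enzyme, and the surface peptidase gene ANPEP, which are not in the list, were at -2.11 and -1.98. COL5A1 and S100A4 were at 0.58 and 0.76, COL1A1 at -0.22 with a Wnt3a step of 0.28, and COL3A1 was at -1.24 on one probe set and -0.30 on another. On the brightest probe set of each of the 14 fibroblast genes, 4 (COL1A1, COL5A1, S100A4 and TWIST1) were above the median on all arrays and 6 on none (COL1A2, LUM, PDGFRA, PDGFRB, FAP and POSTN). The probe set of COL1A2 given above is a dimmer one on average. DCN read 7.24 and 7.75 on the control arrays, 5.17 and 5.64 with Wnt3a and 6.11 and 5.38 on the SET8 arrays. COL6A3 read 8.23 and 7.40, then 5.88 and 6.27, then 5.59 and 5.53. On these brightest probe sets COL1A2, COL3A1, COL6A3, DCN, PDGFRA, FAP, THY1 and POSTN were lower on both Wnt3a arrays than on both control arrays. All of these are dim, and the share of all genes that differ in this way was not counted. COL1A1 was higher, and COL5A1, LUM, PDGFRB, S100A4 and TWIST1 overlapped. The summed log2 level of the list was 13.92 and 13.74 on the control arrays and 13.94 and 13.96 on the SET8 arrays. This sum is led by the bright members COL1A1, COL5A1 and TWIST1 and says little about the dim ones. The part of fibroblast RNA in these differences was not tested.

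Blood cell genes were dim. Of 15 on the array, 9 were below the array median on every array, among them PTPRC and HBB. Of the 5 tested, 3 were separated and lower, beside 1.84% of all genes: HBA1 (-1.43), HBA2 (-1.13) and CD68 (-1.05), all in the SET8 step. CD14 read 7.45 and 6.95, then 7.85 and 8.02, then 8.12 and 7.80, a difference of 0.76 (limma adjusted p of 0.376). HBA2 read 8.66 and 8.81, then 8.63 and 8.83, then 7.60 and 7.62, with a limma adjusted p of 0.128. The SET8 arrays of HBA2 lay below the others. The summed log2 level of the list was 11.44 and 11.85 on the control arrays and 11.08 and 10.98 on the SET8 arrays, and its part in the results was not tested.

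**Figure D4:**
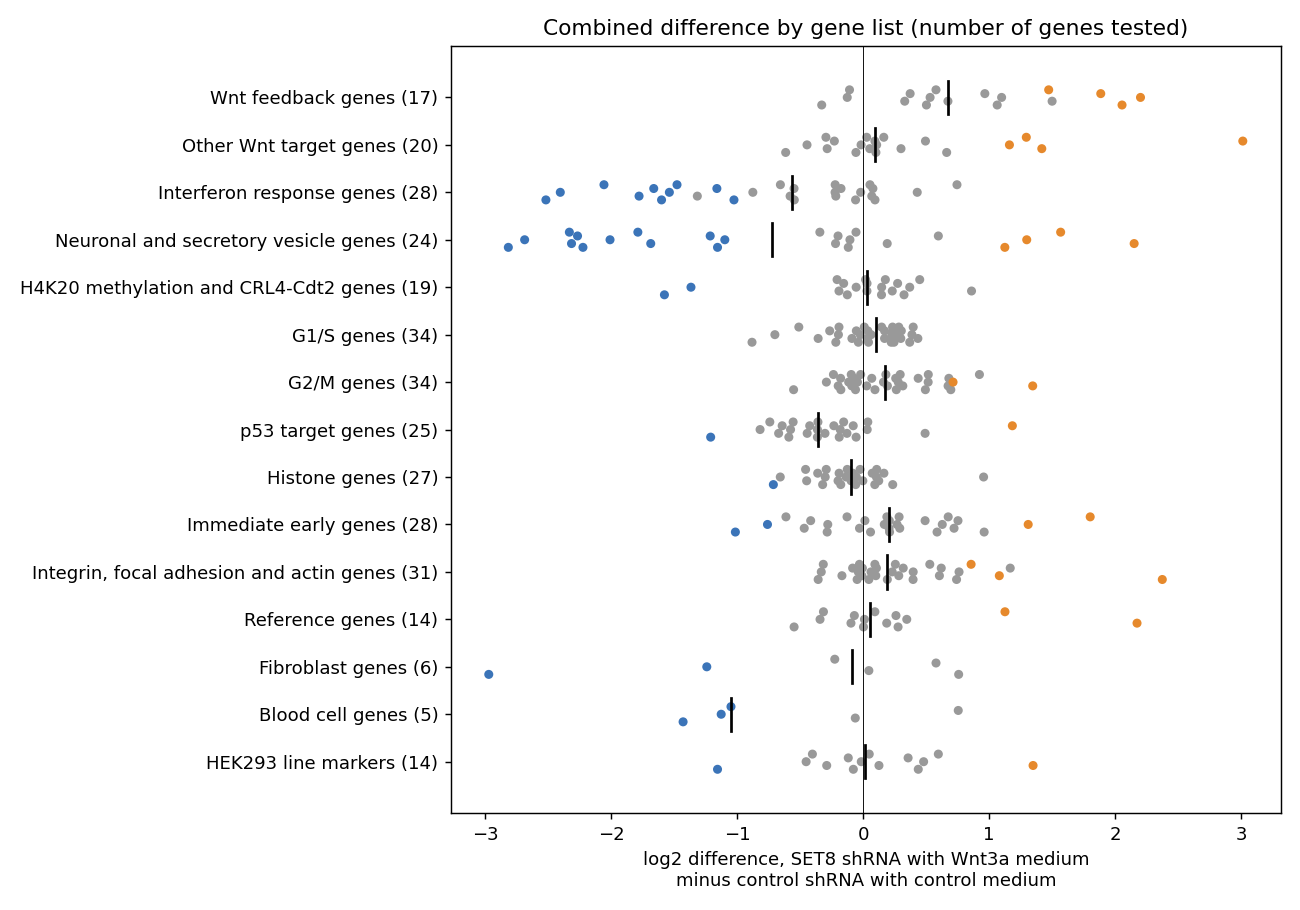
Combined log2 difference of each tested gene in 15 lists, on the brightest probe set of the gene, with separated genes in orange (higher) and blue (lower) and a bar at the median of the list. The interferon and the neuronal lists have medians of -0.56 and -0.72, the Wnt feedback genes 0.67, and the G1/S genes 0.11 with no separated member.

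Among genes around histone H4 lysine 20, KMT5A and KMT5B were lower on both SET8 arrays. Of 19 tested in the H4K20 methylation and CRL4-Cdt2 list, 2 were separated and lower, beside 1.84% of all genes, and the median was 0.03. Besides KMT5A this was KMT5B, a methyltransferase that acts on the same lysine after KMT5A, at 9.68 and 10.20, then 9.19 and 9.94, then 8.77 and 8.38. The KMT5B difference was -1.37 (SE 0.34) and did not pass, and its other probe sets were at -1.65, -0.27 and -0.07. With the 4 arrays alone KMT5B fell on AF151843 (-1.65, limma adjusted p of 0.0376). Of 27 histone genes tested, H4C15 was separated and lower (-0.71, with a Wnt3a step of -0.92), and the median was -0.09.

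Cell cycle lists had medians near that of all genes. On the brightest probe set of each gene none of 34 G1/S genes was separated, with a median of 0.11. RRM2, a subunit of ribonucleotide reductase, was at -0.88 on that probe set. On its other probe set (NM_001034) RRM2 read 11.90 and 10.63, then 12.25 and 10.48, then 8.89 and 9.49, a separated difference of -2.08 that did not pass in limma. CCNE1, cyclin E, was at -0.70. Of 34 G2/M genes, KIF23 (1.35), a motor of the midbody, and TPX2 (0.71), a spindle assembly factor, were separated and higher, beside 3.52% of all genes, with a median of 0.17. KIF23 read 10.57 and 10.10, then 10.66 and 10.17, then 11.40 and 11.96, with a Wnt3a step of 0.08 and a SET8 step of 1.26. The p53 target list leaned to lower values, with a median of -0.36 beside 0.02 over all genes. Of its 25 members 21 were lower and 4 higher, where 6243 of all 13070 genes were lower and 6827 higher. At an unadjusted limma p under 0.05, 5 members of this list were lower and 1 higher, where 579 of all genes were lower and 852 higher. In the p53 list TP53I3, a quinone oxidoreductase, was at -1.21 and FAS, a death receptor, at 1.19. None of these cell cycle and p53 genes passed in limma.

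Immediate early genes, cytoskeletal genes and reference genes held single members with large differences. NR4A1, an orphan nuclear receptor induced by growth signals, read 10.60 and 10.35, then 11.21 and 11.06, then 12.17 and 12.38, a difference of 1.80 (SE 0.24, limma adjusted p of 0.0546). Its pairs do not overlap, and 1.14 of the difference lay in the SET8 step. FOS, a subunit of AP-1, was at 1.31, all of it in the SET8 step. FOS was above the array median on the SET8 arrays only, so it passed the filter through them. Of 28 immediate early genes tested 2 were separated and higher and 2 lower, beside 3.52% and 1.84% of all genes, with a median of 0.21.

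VCL, vinculin of the focal adhesion, read 9.41 and 9.15, then 9.40 and 8.67, then 11.43 and 11.88, a difference of 2.38 (SE 0.32, limma adjusted p of 0.0546), and its other probe set gave 2.46. Both SET8 arrays of VCL were above all others. The integrin, focal adhesion and actin list had 3 of 31 members separated and higher, beside 3.52% of all genes, VCL, TAGLN (1.08) and CNN2 (0.86), and a median of 0.19. HPRT1, a purine salvage enzyme often used as a reference gene, read 8.57 and 8.86, then 8.39 and 8.74, then 10.64 and 11.13, a difference of 2.17 (SE 0.28, limma adjusted p of 0.0546). YWHAZ, a 14-3-3 protein gene that is also used as a reference, was at 1.13, with its 7 probe sets between 0.96 and 1.45. The other 12 of the 14 reference genes were not separated, and the median of the list was 0.05.

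The fit with the 4 arrays alone, which takes the spread from these arrays and not from the Wnt3a pair, called 158 probe sets higher (0.664%) and 72 lower (0.302%), of 120 and 57 genes, and the 12 were among them. Of the 158 higher, 72 moved in the SET8 step, 58 in both and 28 by Wnt3a alone. Of the 72 lower, 61 moved in the SET8 step, 7 by Wnt3a alone and 4 in both. The 28 higher probe sets moved by Wnt3a alone included those of TBXT, LMO2, DKK1, SP5, NKD1, WNT11 and HES7, a clock gene of somite formation (2.42). These names are a selection, and the class also held NCKAP1L (2.13), KRTAP3-1 (2.28), SLC2A4 (2.04), NRXN2 (1.87) and others. The 7 lower ones were COL1A2, CXCL12 (-1.99), CD248 (-2.85), SOD3, FBLN2 (-2.02), CD4 (-1.53) and PLAC9 (-1.40). Among those called in the SET8 step were VCL, HPRT1, PRPS2 and KMT5A itself. With 2 arrays a group and 2 residual degrees of freedom, this fit rests on the spread of 4 arrays.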

How the data were processed

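Single-colour (Cy3) arrays gave the values. Per the submitters' processing notes they were summarised by RMA, and the authors deposited them as linear intensity values, 1 for each probe set on each array. For the RMA settings, the sources used here give nothing, and scanner signals were not used. Values were converted to log2 without an offset. A probe set was tested if it exceeded its array's median on 2 or more of the 6 arrays (23808 passed, 21225 did not). All 6 arrays entered a 3-group model in limma 3.58.1 (R 4.3.3, lmFit and eBayes, 3 residual degrees of freedom), and a probe set was called where its p, adjusted by Benjamini-Hochberg across the whole table, was under 0.05. The script was tested on simulated data. Current gene symbols came from a RefSeq table joined on Entrez ID (86.4% of probe sets matched), and probe set positions are hg18 per the file headers. The number of arrays limits the precision.

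Named were called probe sets, then those with the smallest p until 12 genes stood in each direction, 9 genes always, and for each list its called members or else the 2 with the smallest p. From each class of the division came the 3 with the smallest p per direction. Other members were named after their values were seen, and some list members are counted but not reported here by name. The comparison, gene lists and rules were chosen with earlier results of these data known. Lists were described on the brightest probe set of each gene, with no set test. Replicate differences correlated at 0.75 between the control and Wnt3a pairs and at -0.29 between each of these and the SET8 pair. Replicate numbers were therefore not taken to pair the SET8 arrays with the others, and the model has no pairing. The replicate difference that the control and Wnt3a pairs share is counted as spread in this model.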

Additional observations from a re-analysis of the deposited data

How the results depend on the processing

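Of 1351 values recomputed under 19 settings, 1022 kept their direction and side of the threshold (or moved by less than the spread), 171 passed a threshold they had missed, 88 no longer passed, 62 moved and 8 reversed. The cause was not tested unless a setting's construction gives it. The 12 calls became 230 with the 4 arrays alone, 0 with no filter on dim probe sets (more tests to adjust for), 52 with a filter at the 60th percentile (7 of the 12 shared), 31 with an intensity trend, 2 with a robust prior, 6 with quantile normalization again, 6 with median centring, 36 with an offset of 64 and 156 at an adjusted p under 0.1. Leaving out 1 array gave 0 to 230. With the replicate number as a block, limma called 0 (2767 at an unadjusted p under 0.05), and with the SET8 numbers crossed, a pairing chosen after seeing the data, 792. KMT5A stayed at -1.58 (-1.92 to -1.24 with 1 array left out) and passed with the 4 arrays alone, without either Wnt3a array (the same fit for this contrast) and with the crossed block.

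Separated probe sets numbered 1195, with 2331 with no filter, 358 at 2-fold and 2204 to 4344 with 1 array left out, since fewer arrays must be separated. With the 60th percentile filter, 3 of the shared calls moved in the SET8 step and 1 by Wnt3a alone, and leaving out 1 array gave 2 in both steps at the lowest. The neuronal median was -0.21 with no filter, -0.75 with quantile normalization, -0.74 with centring, -0.63 with the offset and -0.78 to -0.66 with 1 array left out. The interferon median was -0.38 with the 60th percentile filter and -0.62 to -0.39 with 1 array left out. The Wnt feedback median ran from 0.48 to 1.05 with 1 array left out. The median of fibroblast genes was -0.86 with no filter, reversed to 0.31 with the 60th percentile filter and 0.06 with the mean over probe sets, and ran from -0.15 to 0.02 with 1 array left out. That of HEK293 markers was -0.01 with that filter and 0 with centring. With 1 array left out, other Wnt targets ran from -0.05 to 0.14, G2/M genes from -0.01 to 0.21 and CCND1 from -0.04 to 0.22.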

Other observations

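Besides LMO2 and NKD1, 5 probe sets were separated in both steps in opposite directions, and their genes are named here after their values were seen. SFRP2, a secreted Frizzled-related Wnt modulator, read 7.76 and 7.61 in log2 intensity on the control arrays, 8.38 and 8.78 with Wnt3a and 7.69 and 7.67 with SET8 shRNA and Wnt3a. DNM3, a dynamin of membrane fission, had a Wnt3a step of 1.22 and a SET8 step of -0.98, and ATP2C1, a calcium and manganese pump of the Golgi, had a SET8 step of -1.17 after a higher level with Wnt3a (8.10 and 7.95, against 7.14 and 5.92 on the control arrays). PURPL, a long noncoding RNA, had 0.82 and -1.59, a combined difference of -0.77. MYL9, a myosin light chain, went the other way, with -0.92 and 0.88. The steps share the Wnt3a arrays with opposite sign, so a deviation of that pair alone gives the same picture, and neither step of these 5 genes passed in limma.

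Genes outside the lists that were called with the 4 arrays alone were also named after their values were seen. PPARG, a nuclear receptor of fat cell formation, rose on 3 probe sets (2.18, 2.04 and 2.19), and LCK, a tyrosine kinase of T cells, on 3 (2.32, 2.24 and 2.05). KLK6, a secreted serine protease, rose by 2.67, 2.05 and 2.29 on its probe sets. The cadherin genes CDH1 (2.20) and CDH3 (1.58 and 1.55) and the cell cycle kinase gene CDK6 (1.94 and 1.69) rose as well. On the lower side were the matrix metalloprotease gene MMP24 (-2.48) and ENG, a co-receptor for TGF-beta (-2.26). None of these 8 genes passed in limma with all 6 arrays.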
